A study of Mus musculus with 2 samples.

Results

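The genes described are the interleukin-1 (IL-1) system and the inflammasome in mouse bone marrow cultures. They were taken by name, 10 of the 32285 genes in the deposited tables: the ligands Il1a, Il1b and Il18, the receptor antagonist Il1rn, the receptors Il1r1, Il1r2 and Il1rap, the inflammasome sensor Nlrp3 and the inflammatory caspases Casp1 and Casp4. All 10 were found. The cultures came from the bone marrow of a single wild-type male C57BL/6J mouse 3 months old. In the first 48 h the medium was depleted of hormones and held M-CSF, the macrophage growth factor, at 5 ng/mL. In the next 24 h it held M-CSF at 100 ng/mL, RANKL, the osteoclast differentiation factor, at 30 ng/mL and human TNF at 10 ng/mL. The DHT culture received 1 nM 5α-dihydrotestosterone (DHT), an androgen that is not converted to estrogen, in both stages, and the vehicle culture received ethanol. Both groups thus carried RANKL and human TNF, and no culture without them was analysed here.

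IL-1α and IL-1β act on the receptor Il1r1, which needs the accessory protein Il1rap to signal. Il1rn occupies Il1r1 without signalling, and Il1r2 is a decoy that binds ligand but lacks the signalling domain. IL-1β and IL-18 are made as precursors. Inflammasomes, among them the one built on Nlrp3 and the adaptor Pycard, activate caspase-1, which cuts both precursors, while caspase-4 (also called caspase-11 in mice) responds to bacterial lipopolysaccharide in the cytosol. In bone, IL-1 is known to promote osteoclast formation and activity. RNA levels do not report on these cutting steps.

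Each group was 1 single-cell library, so there is no replicate and no test between groups. All intervals are 95% intervals and cover the error of counting molecules only, not the difference between cultures. After filtering, 7708 cells with DHT and 8590 with vehicle remained, with 296659811 and 430858831 unique molecular identifiers (UMIs, counts of captured RNA molecules) and medians of 30133 and 50833.5 per cell. The libraries shared 33 cell barcodes. Levels are counts per 1e6 UMIs (CPM) from the UMIs of all cells of a library, or of one class, added up. A gene was measured in a comparison where the mean of both libraries was at least 2 CPM, and it was called where the libraries differed by 1.5-fold or more. Because a 3′ count is not scaled to transcript length, and because capture differs between genes, levels of different genes are set side by side only where a sentence says so.

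Cells were clustered without the 10 genes, their pathway lists or interferon-regulated genes, and named from marker genes. The labels call the cells osteoclast precursors. Osteoclast-like cells made up 29.5% (28.5% to 30.5%) of cells with DHT and 55.3% (54.2% to 56.4%) with vehicle. Acp5 was among the leading genes of each of their clusters, and Ctsk among those of clusters 1, 3 and 7 but not of cluster 0. Neutrophil-like cells made up 24.2% (23.3% to 25.2%) and 12.7% (12% to 13.4%), so this class was the more common one with DHT. Macrophage-like cells were 11.2% and 11.9%, monocyte-like cells 11.8% and 9.79%, and the granulocyte-monocyte progenitor-like, conventional dendritic cell-like and B cell-like classes were each under 5%. Of the 16 clusters, cluster 5 was left unnamed for its low depth (a median of 1498 UMIs), and held 12.9% and 4.46% of cells. Cluster borders were unstable. A first clustering had left 4 IL-36 genes in by mistake, because the deposited tables give them older symbols, and it put 22.5% and 40.3% of cells in the osteoclast-like class. The number of members called in each direction over all cells and in the osteoclast-, macrophage-, monocyte- and neutrophil-like cells was the same in that clustering.

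Promoters are shown for the ligand, the antagonist, the sensor and the caspase whose levels the results turn on. They are from RefSeq (GRCm38.p6), end before the annotated gene, run 5′ to 3′ on the strand of the gene, and have capitals where a searched motif matched. The first promoter listed is given for Il1rn (3 listed), Nlrp3 (2 listed) and Casp4 (2 listed). Il1b lies on the minus strand of chromosome 2 at chr2:129371140-129371389, Il1rn on the plus strand of chromosome 2 at chr2:24336610-24336852, Nlrp3 on the plus strand of chromosome 11 at chr11:59541319-59541567, and Casp4 on the plus strand of chromosome 9 at chr9:5308599-5308827.
Il1b: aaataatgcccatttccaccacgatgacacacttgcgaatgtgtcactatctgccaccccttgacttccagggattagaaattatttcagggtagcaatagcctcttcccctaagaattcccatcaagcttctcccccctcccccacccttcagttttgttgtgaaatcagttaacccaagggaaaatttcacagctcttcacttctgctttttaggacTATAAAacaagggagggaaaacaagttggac
Il1rn: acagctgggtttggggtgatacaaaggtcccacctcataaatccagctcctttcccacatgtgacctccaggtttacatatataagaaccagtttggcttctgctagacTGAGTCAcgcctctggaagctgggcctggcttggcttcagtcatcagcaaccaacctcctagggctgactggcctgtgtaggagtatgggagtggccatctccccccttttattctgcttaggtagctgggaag
Nlrp3: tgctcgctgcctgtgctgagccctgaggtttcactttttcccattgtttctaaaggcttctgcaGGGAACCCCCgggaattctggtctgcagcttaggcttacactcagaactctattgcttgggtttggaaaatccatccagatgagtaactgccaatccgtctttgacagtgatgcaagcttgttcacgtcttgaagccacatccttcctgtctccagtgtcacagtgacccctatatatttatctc
Casp4: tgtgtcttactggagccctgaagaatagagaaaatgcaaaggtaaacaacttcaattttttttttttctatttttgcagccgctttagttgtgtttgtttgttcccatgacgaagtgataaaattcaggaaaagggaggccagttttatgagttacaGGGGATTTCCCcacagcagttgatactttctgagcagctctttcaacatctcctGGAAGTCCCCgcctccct
Searched on both strands of the 300-base promoters were the TATA box TATAAA, found in 13.6% of 32851 mouse promoters of this length, the AP-1 site TGANTCA (7.81%), the kappaB consensus (8.46%), the androgen receptor half-site AGAACA (19.0%) and the core of the interferon-stimulated response element, GAAA and GAAA with NN between them (3.44%). The capitals are a TATA box at position -31 in Il1b, an AP-1 site at -141 in Il1rn, a kappaB match at -186 in Nlrp3 and kappaB matches from -93 and at -39 in Casp4. The run from -93 in Casp4 holds overlapping matches. Androgen receptor half-sites matched in the promoters of Il18 at -74, Casp1 at -188 and the second promoter of Il1r1 at -131. No promoter of Il1a, Il1b, Il1rn, Il1r2, Il1rap, Nlrp3 or Casp4 held one. Among promoters not shown, the other motifs matched in Il1a (TATA box, AP-1), Il18 (TATA box), Il1r1 (kappaB) and Il1rap (interferon-stimulated response element). A further promoter of Il1rn (TATA box) and of Casp4 (kappaB) also had matches. A match is a description of these letters and not evidence of binding.

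Over all filtered cells, 8 of the 10 members were measured, 5 were called higher with DHT (Il1b, Il1rn, Il1r2, Il18 and Nlrp3) and 0 were called lower. The background was 8.15% of 10959 measured genes called higher and 0.474% called lower. Members and lists were chosen with earlier results of these data known, so their counts beside backgrounds are descriptions only. The median log2 ratio of the 8 measured members was 0.74, beside -0.01 over all measured genes. Sums over all cells cannot tell more cells of a type from more RNA per cell. When the clusters were weighted by their mean share over both libraries, 3 members remained past the threshold: Il1b at 1.52-fold, Il1rn at 1.80-fold and Il1r2 at 1.64-fold. Il18 was then at 1.37-fold and Nlrp3 at 1.23-fold, both under it. The weighting used shares of cells and UMIs per cell, so differences in depth per cell between the libraries stayed in these ratios. The median cell of cluster 4, which held most Il1b UMIs, had 7848 UMIs with DHT and 5939 with vehicle. In macrophage-like cells the medians were 34882.5 and 50335. How far depth moved these ratios was not tested.

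**Figure D1:**
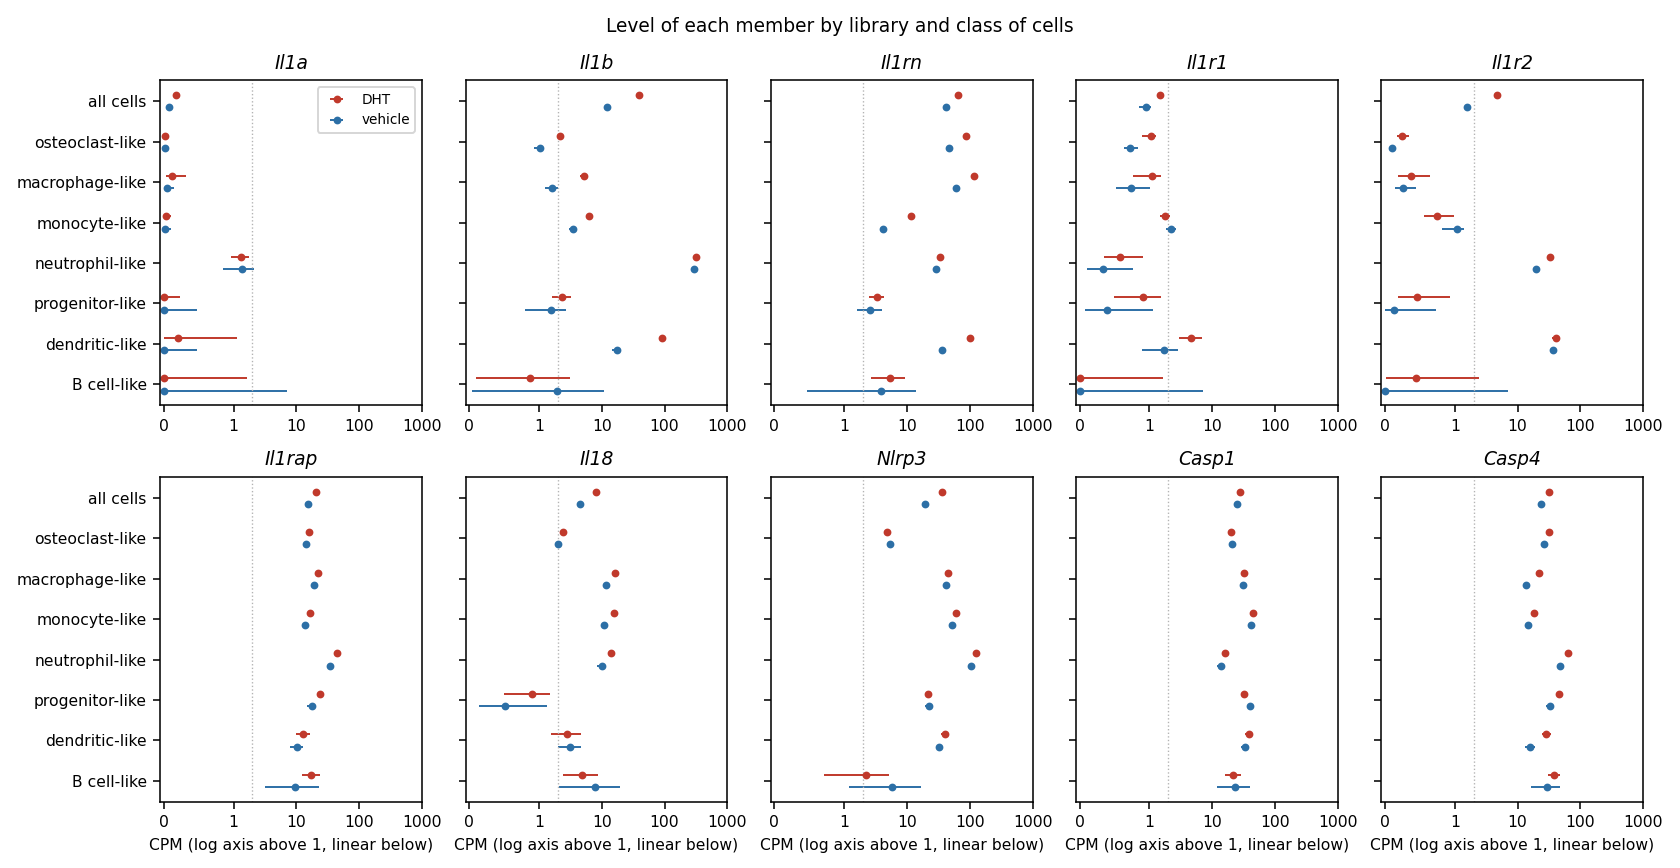
Level of each of the 10 genes in CPM (x axis, logarithmic above 1 and linear below) over all cells and in 7 classes (y axis), with DHT in red and vehicle in blue. Bars are exact Poisson intervals and the dotted line marks 2 CPM. Il1b was highest in neutrophil-like cells, at 313 and 298 CPM, and Il1rn in macrophage-like cells, at 119 and 60.7 CPM.

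Il1b encodes IL-1β. Its level over all cells was 39.6 CPM with DHT (38.9 to 40.3) and 12.2 CPM with vehicle (11.9 to 12.5), a ratio of 3.25 (3.15 to 3.36). With CPM averaged over single cells the ratio was 2.04. Within neutrophil-like cells it was at 313 CPM (307 to 319) and 298 CPM (289 to 306), a ratio of 1.05 (1.02 to 1.09). The large difference over all cells was thus not seen within the class that held most of the transcript: 87.8% of Il1b UMIs with DHT and 86.2% with vehicle were in neutrophil-like cells. Nearly all of these were in cluster 4, led by Retnlg, S100a8 and S100a9, with 85.8% and 84.2% of all Il1b UMIs in 11.2% and 6.22% of cells.

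Cluster 4 can be followed cell by cell. Its Il1b level was 1410.2 CPM with DHT and 1328 CPM with vehicle, a ratio of 1.06 (1.02 to 1.10), and its median cell was at 1102 and 1043 CPM. Cells with at least 4719 UMIs, 781 of its 865 with DHT and 378 of its 534 with vehicle, were thinned to that number and the shallower ones left out. Of these, 86.2% (83.5% to 88.5%) had an Il1b UMI with DHT and 86.5% (82.6% to 89.8%) with vehicle, and these intervals overlap. Unthinned, the shares were 93.5% and 91.0%. In B cell-like cells, which are not expected to make Il1b, the thinned shares were 0.345% (1 of 290 cells) and 2.13% (1 of 47 cells). The cells kept for thinning had median depths of 8211 and 6818 UMIs in cluster 4 and 6550 and 5645 in the B cell-like class, where all cells had medians of 7848 and 5939 and of 6269 and 4552. Il1b was thus found in most of the cells kept in this cluster in both libraries. The other neutrophil-like clusters, 8 and 9, led by the granule genes Camp and Ngp, had far less Il1b: 20.04 and 17.7 CPM in cluster 8, and 2.29 and 4.20 CPM in cluster 9.

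Outside neutrophil-like cells Il1b was low but higher with DHT in several classes. All remaining cells together gave 5.42 and 1.75 CPM, 3.102-fold (2.84 to 3.40). Macrophage-like cells were at 5.22 CPM (4.46 to 6.07) and 1.60 CPM (1.27 to 1.99), 3.27-fold (2.49 to 4.32), monocyte-like cells at 6.29 and 3.503 CPM, 1.79-fold (1.505 to 2.15). These sums rest on few cells. In macrophage-like cells 10 cells held 77.4% of the Il1b UMIs with DHT and 76.2% with vehicle. Without the highest cell of each library (75 and 21 UMIs) the ratio there was 2.45 (1.75 to 3.46), and with all variable genes used for clustering it was 1.18, under the threshold. In monocyte-like cells the ratio was 1.44 at a clustering resolution of 0.3. Conventional dendritic cell-like cells, 148 and 203 in number, were at 92.4 CPM (84.2 to 101.2) and 17.4 CPM (14.6 to 20.7), 5.30-fold (4.36 to 6.47), with 14 cells and 1 cell at 10 or more UMIs. The ratio in this class was not recomputed under other settings. Osteoclast-like cells were at 2.19 and 1.05 CPM, under the minimum.

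Neutrophil RNA was higher in other classes with DHT too, and its part in these Il1b values was not tested. The 12 neutrophil markers together came to 1035 CPM with DHT and 452 CPM with vehicle in osteoclast-like cells, 1758 and 630.0 CPM in macrophage-like cells, and 3968 and 2533 CPM in monocyte-like cells, and none was at 0 in these classes. As a percent of their level over all barcodes of the library, these markers had medians of 3.24% and 3.59% in osteoclast-like and 4.41% and 4.48% in macrophage-like cells. Il1b was at 5.66% and 8.53%, and at 13.5% and 13.02%, on the same scale. After subtraction of free RNA estimated from 6 of the markers, Il1b in macrophage-like cells was at 3.78 and 1.17 CPM. In the dendritic cell-like class the markers ran the other way, at 543 CPM with DHT and 1082 CPM with vehicle.

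Il1a, the gene of IL-1α, was close to absent. All DHT cells held 54 UMIs and all vehicle cells 32, which is 0.182 and 0.0743 CPM and not measured by the rule. Cluster 4 held 42 and 21 of these, at 5.88 CPM (4.24 to 7.94) and 6.32 CPM (3.91 to 9.65), so the levels within it overlap. No Il1a UMI was seen in progenitor-like cells, which allows up to 0.195 and 0.391 CPM, or in B cell-like cells, which allows up to 1.32 and 5.79 CPM.

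Il18 encodes IL-18. With DHT it stood at 8.25 CPM (7.93 to 8.59) over all cells, and in the vehicle library at 4.54 CPM (4.34 to 4.75), 1.82-fold (1.71 to 1.93). Within the 4 main classes the differences were smaller and none reached 1.5-fold: 16.4 and 11.8 CPM in macrophage-like cells (1.39-fold, 1.23 to 1.56), 15.8 and 10.8 CPM in monocyte-like cells (1.46-fold, 1.31 to 1.62), 14.1 and 10.1 CPM in neutrophil-like cells (1.40-fold, 1.17 to 1.69). Osteoclast-like cells had the lowest level of these classes, 2.42 and 2.03 CPM. In the neutrophil-like class nearly all of it was again in cluster 4, at 61.6 and 46.0 CPM, while clusters 8 and 9 held 13 and 12 UMIs with DHT and 0 each with vehicle, which allows up to 0.749 and 0.382 CPM. These ratios lay near the threshold, and other settings moved them past it. The macrophage-like ratio did so in 5 of 13 planned settings and was highest, 1.65, with a mitochondrial limit of 20%. The monocyte-like ratio was 1.55 with CPM averaged over single cells and the neutrophil-like ratio 1.56 without doublet removal. Scoring clusters against all other cells gave an osteoclast-like ratio of 2.36, on 12 and 9 UMIs and below the minimum level.

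Il1rn encodes the IL-1 receptor antagonist. It was higher with DHT inside the osteoclast-, macrophage- and monocyte-like classes. Osteoclast-like cells had 87.8 CPM (86.3 to 89.4) in the DHT library and 46.8 CPM (46.0 to 47.6) in the vehicle library, 1.88-fold (1.83 to 1.92). Macrophage-like cells were at 119 CPM (115 to 122) and 60.7 CPM (58.5 to 62.9), 1.96-fold (1.86 to 2.05). Monocyte-like cells had less, 11.7 CPM (10.9 to 12.6) and 4.19 CPM (3.65 to 4.78), 2.80-fold (2.41 to 3.27), a ratio that was 1.79 at a clustering resolution of 0.3 and 4.48 with CPM averaged over single cells. In neutrophil-like cells it was at 34.1 CPM (32.1 to 36.1) and 29.1 CPM (26.4 to 31.9), 1.17-fold (1.05 to 1.31), and in cluster 4 at 91.2 and 87.5 CPM, 1.04-fold (0.91 to 1.201), whereas the small level of cluster 9, 5.92 and 2.16 CPM on 93 and 17 UMIs, was 2.74-fold higher (1.62 to 4.90). Dendritic cell-like cells were at 100.6 CPM (92.0 to 109.9) and 36.4 CPM (32.3 to 41.0), 2.76-fold (2.38 to 3.21). The cells of this class differed between the libraries. Their cycling markers came to 344 CPM with DHT and 717 CPM with vehicle, and their monocyte markers to 405 and 274 CPM. The part of this in the dendritic cell-like ratio was not tested, and that ratio was not recomputed under other settings. The counting intervals of the neutrophil-like ratio and of the osteoclast-, macrophage- and monocyte-like ratios do not overlap. They leave out the spread between cells and between cultures, and other settings moved each of these ratios outside its interval. The difference between classes was not tested. Osteoclast-like cells held 63.6% and 76.9% of all Il1rn UMIs. The macrophage-like ratio ran from 1.54 to 2.59 over 13 planned settings. Macrophage-like cells also differed in their markers between the libraries. The 11 macrophage markers came to 2874 CPM with DHT and 1820 CPM with vehicle, and the 5 markers of cycling cells to 477 and 779 CPM. In monocyte-like cells the macrophage markers came to 704 CPM with DHT and 515 CPM with vehicle. Their medians there were 66.2% and 34.8% of their level over all barcodes. The part of these marker differences in the Il1rn ratios was not tested. Few monocyte-like cells had the transcript. After thinning, 4.89% and 2.42% of those without an Il1b UMI had an Il1rn UMI, beside 2.42% and 2.17% in B cell-like cells.

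Over all cells Il1rn was at 63.9 and 41.6 CPM, 1.54-fold (1.51 to 1.57), and at 1.46-fold, under the threshold, with median-of-ratios scaling. Within osteoclast-like cells the 4 clusters gave 1.95-fold in cluster 0, 2.07-fold in cluster 1, 1.82-fold in cluster 3 and 1.41-fold in cluster 7. Cluster 7 was the one led by Acp5 and Ctsk and the only one under 1.5-fold. It was also the only osteoclast-like cluster when clusters were scored against all other cells, so the class then had a ratio of 1.41. The median cell differed too: the median osteoclast-like cell was at 41.3 CPM with DHT and 20.5 CPM with vehicle, and 384 of 2272 cells against 305 of 4750 had 10 or more UMIs. After thinning, 28.8% (27.0% to 30.8%) and 17.8% (16.7% to 19.0%) of the osteoclast-like cells kept, and 30.2% (27.1% to 33.5%) and 17.9% (15.6% to 20.5%) of the macrophage-like cells kept, had an Il1rn UMI. Unthinned shares were 75.4% and 66.3% in osteoclast-like and 63.9% and 56.0% in macrophage-like cells. B cell-like cells were at 2.41% and 2.13% thinned. The osteoclast-like cells kept, 2236 of 2272 and 4700 of 4750, had median depths of 58146.5 and 60022.5 UMIs, against 6550 and 5645 in the B cell-like cells kept.

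**Figure D2:**
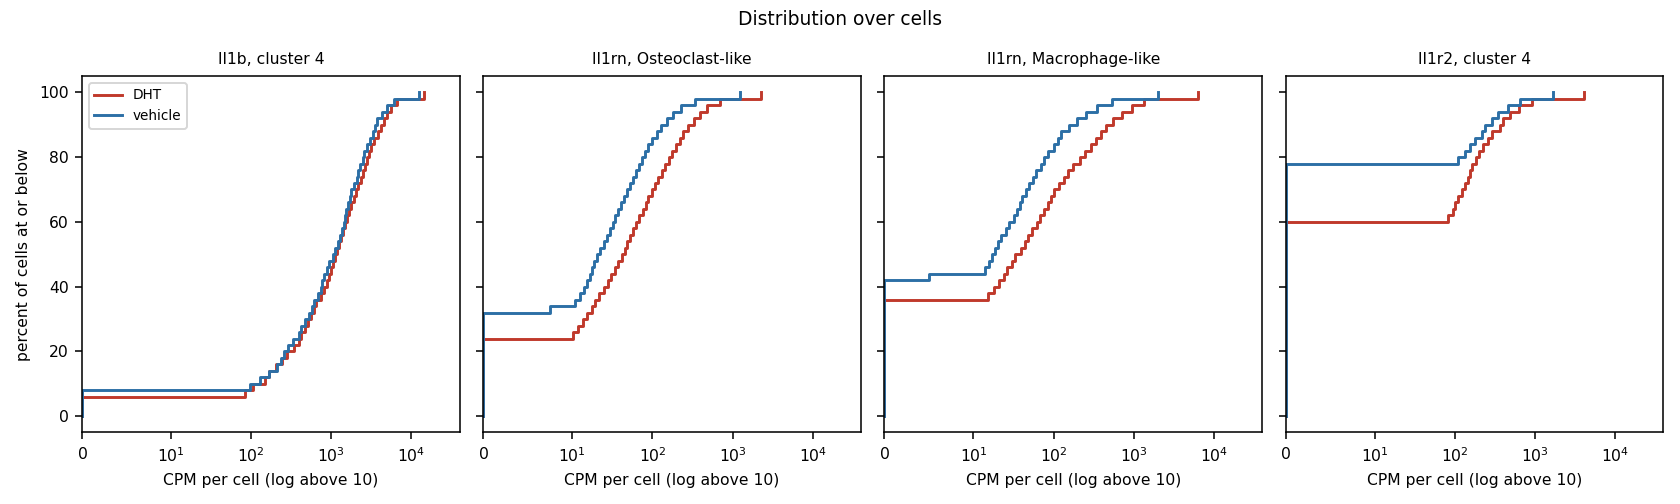
Cumulative distribution over cells of the level of Il1b in cluster 4, Il1rn in osteoclast-like and macrophage-like cells and Il1r2 in cluster 4, as CPM per cell (x axis, logarithmic above 10) against the percent of cells at or below it (y axis), with DHT in red and vehicle in blue. The curves of Il1b lie close together (medians 1102 and 1043 CPM), whereas those of Il1rn in osteoclast-like cells are apart (medians 41.3 and 20.5 CPM).

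The ratio of Il1rn to Il1b UMIs sets antagonist beside ligand within a library. It compares molecules counted for each gene and is not a ratio of proteins. Over all cells it was 1.61 (1.58 to 1.65) with DHT and 3.41 (3.31 to 3.52) with vehicle, so the balance was lower with DHT although both genes were higher. Within neutrophil-like cells it was 0.109 and 0.0978, within osteoclast-like cells 40.2 (35.8 to 45.2) and 44.7 (39.9 to 50.2), and within monocyte-like cells 1.87 (1.65 to 2.11) and 1.196 (0.979 to 1.46). Macrophage-like cells had 22.7 (19.5 to 26.7) and 38.0 (30.4 to 48.0).

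**Figure D3:**
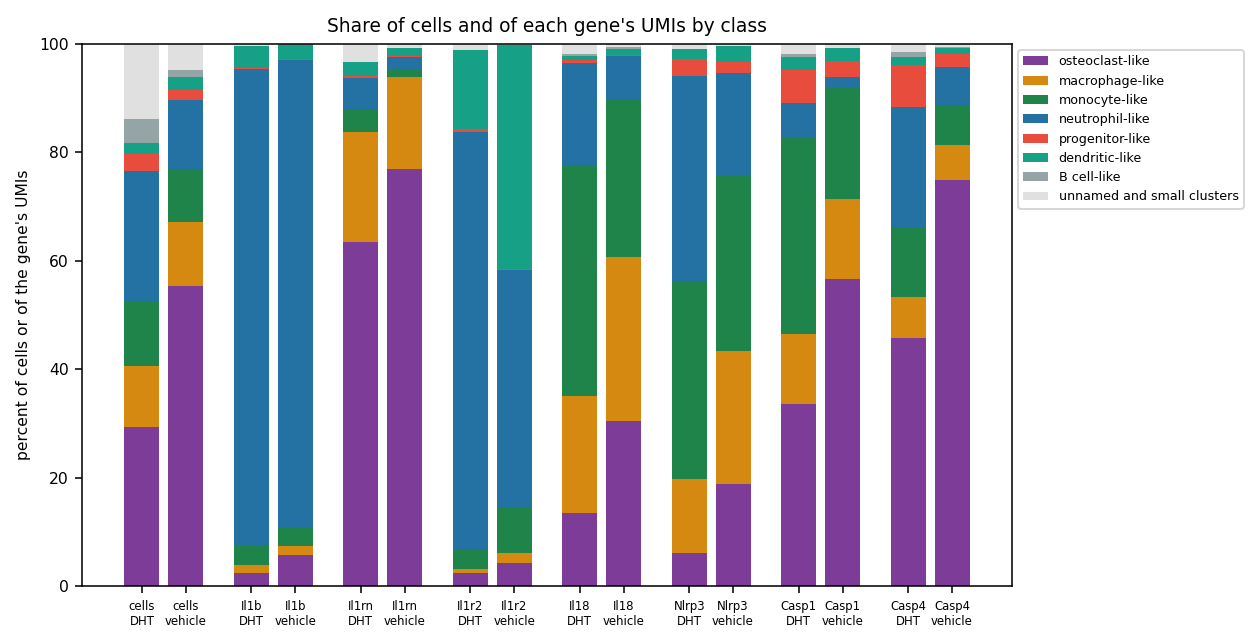
Percent of cells (the 2 bars at the left) and of the UMIs of 7 of the genes (other bars) that fell in each class (colours), for each library. Neutrophil-like cells, 24.2% and 12.7% of cells, held 87.8% and 86.2% of Il1b UMIs, while osteoclast-like cells held 63.6% and 76.9% of Il1rn UMIs.

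Il1r1, the signalling receptor, was barely detected. All cells held 439 and 407 UMIs, 1.48 CPM (1.34 to 1.62) in the DHT library and 0.945 CPM (0.855 to 1.04) in the other, under the minimum. Dendritic cell-like cells passed the minimum at 4.62 and 1.68 CPM on 23 and 13 UMIs. Monocyte-like cells, at 1.75 and 2.19 CPM, and osteoclast-like cells, at 1.06 and 0.728 CPM, did not. Its highest level was in the mesenchymal stromal-like cluster 15, at 41.4 CPM (32.0 to 52.6) and 25.4 CPM (14.5 to 41.2), which held only 18 and 6 cells. No UMI was found in B cell-like cells, which allows up to 1.32 and 5.79 CPM.

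Il1r2, the decoy receptor, was higher with DHT within neutrophil-like cells. Over all cells it was at 4.65 CPM (4.41 to 4.90) and 1.59 CPM (1.47 to 1.71), 2.93-fold (2.67 to 3.22). Neutrophil-like cells were at 32.2 CPM (30.3 to 34.2) and 19.7 CPM (17.5 to 22.04), 1.64-fold (1.44 to 1.87). The difference held in cluster 4, at 101.2 and 55.6 CPM (1.82-fold, 1.55 to 2.15), and in cluster 8, at 25.9 and 15.98 CPM (1.62-fold, 1.23 to 2.16), and not in cluster 9, at 4.96 and 6.36 CPM (ratio 0.78, 0.54 to 1.14). Thinned, 28.7% (25.5% to 32.0%) and 14.8% (11.4% to 18.8%) of the cluster 4 cells kept had an Il1r2 UMI. Unthinned it was 39.8% and 21.5%, and in B cell-like cells the thinned count was 1 of 290 and 0 of 47, which allows up to 6.38%. The dendritic cell-like class held 14.5% of Il1r2 UMIs with DHT and 41.4% with vehicle, at near levels of 40.2 and 36.6 CPM (ratio 1.10, 0.91 to 1.32).

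Il1rap, the accessory chain, was measured in all 7 classes and differed little in the 4 main ones. Over all cells it was at 20.3 and 15.4 CPM, 1.32-fold (1.27 to 1.36). The ratio was 1.13 (1.07 to 1.19) in osteoclast-like, 1.19 (1.08 to 1.31) in macrophage-like, 1.19 (1.08 to 1.31) in monocyte-like and 1.27 (1.15 to 1.41) in neutrophil-like cells. Cluster 4 had the highest level of the 16 clusters, 129.99 and 97.7 CPM. B cell-like cells were at 1.78-fold, on 39 and 5 UMIs and with an interval from 0.70 to 5.77. With CPM averaged over single cells the ratio over all cells was 1.53, past the threshold.

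**Figure D4:**
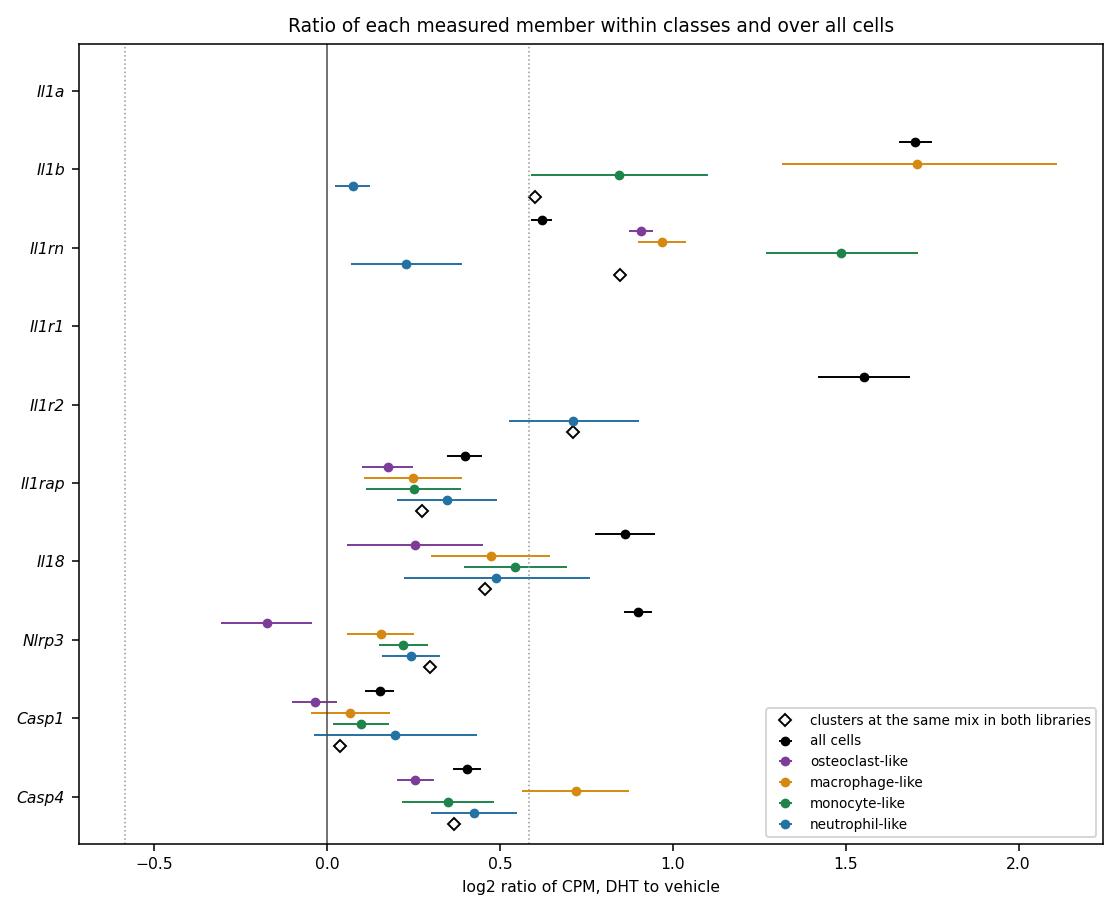
Log2 ratio of CPM, DHT to vehicle (x axis), of each gene (y axis) over all cells (black), in 4 classes (colours) and with the clusters weighted by their mean share over both libraries (open diamonds), for genes with a mean of at least 2 CPM. Bars are exact binomial intervals, which the diamonds lack, and dotted lines mark 1.5-fold. Il1b was at 1.70 over all cells and 0.07 in neutrophil-like cells, whereas Il1rn was at 0.62 over all cells and 0.91 in osteoclast-like cells.

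Nlrp3, the inflammasome sensor, was higher with DHT over all cells and closer to even within the 4 main classes. It was at 36.3 CPM (35.6 to 37.0) and 19.5 CPM (19.1 to 19.9), 1.86-fold (1.81 to 1.92). Neutrophil-like cells, where its level was highest, were at 124 and 105 CPM, 1.18-fold (1.12 to 1.25). Monocyte-like cells were at 59.99 and 51.5 CPM (1.16-fold, 1.11 to 1.22) and macrophage-like cells at 45.7 and 41.1 CPM (1.11-fold, 1.04 to 1.19). Osteoclast-like cells were low, at 4.78 and 5.39 CPM, a ratio of 0.89 (0.81 to 0.97). Clusters 8 and 9, the granule-gene neutrophils, were the named clusters called higher, at 65.3 and 40.7 CPM (1.60-fold, 1.35 to 1.92) and 15.7 and 9.16 CPM (1.71-fold, 1.31 to 2.25). Thinned, 43.0% (40.7% to 45.3%) and 34.9% (31.8% to 38.1%) of the neutrophil-like cells kept (1766 of 1868 and 928 of 1091) had an Nlrp3 UMI, and 60.2% and 50.05% of all of them unthinned. The thinned shares of B cell-like cells were 1.38% and 2.13%. Median depths of the cells kept were 13899 and 11398 UMIs, against 6550 and 5645 in the B cell-like class.

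**Figure D5:**
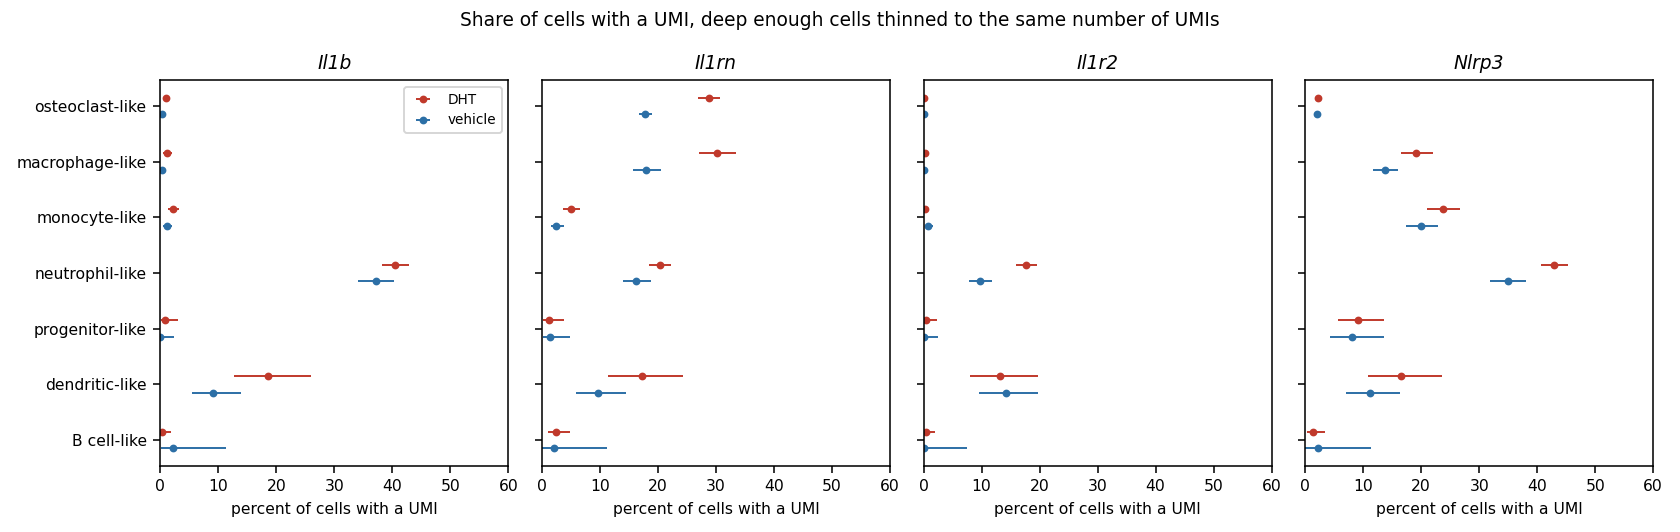
Percent of cells with at least 1 UMI of Il1b, Il1rn, Il1r2 and Nlrp3 (x axis) in 7 classes (y axis), among cells with at least 4719 UMIs, thinned to that number, with DHT in red and vehicle in blue. Bars are exact binomial intervals. Il1rn was found in 28.8% and 17.8% of osteoclast-like cells and Il1b in 40.5% and 37.2% of neutrophil-like cells.

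Casp1, which encodes the protease of the inflammasome, was nearly level. It was at 27.2 and 24.5 CPM over all cells, a ratio of 1.11 (1.08 to 1.14), and at 0.98 (0.93 to 1.02) in osteoclast-like, 1.05 (0.97 to 1.13) in macrophage-like, 1.07 (1.012 to 1.13) in monocyte-like and 1.15 (0.97 to 1.35) in neutrophil-like cells. Its highest level was in monocyte-like cells, at 44.4 and 41.5 CPM. In cluster 4, where Il1b was highest, Casp1 was low, at 10.6 CPM (8.38 to 13.3) and 6.01 CPM (3.67 to 9.29) on 76 and 20 UMIs, a ratio of 1.77 (1.07 to 3.06).

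Casp4 encodes the caspase of the non-canonical inflammasome. Over all cells it was at 31.6 and 23.9 CPM, 1.32-fold (1.29 to 1.36). It was above 1 in each class: 1.19-fold (1.15 to 1.24) in osteoclast-like cells at 31.2 and 26.2 CPM, 1.65-fold (1.48 to 1.83) in macrophage-like cells at 21.99 and 13.4 CPM, 1.27-fold (1.16 to 1.40) in monocyte-like cells and 1.34-fold (1.23 to 1.46) in neutrophil-like cells. Only the macrophage-like value among these 4 passed 1.5-fold, and it was 1.24 with a mitochondrial limit of 20%. Casp1 and Casp4 lie near each other on chromosome 9, at chr9:5298517-5307265 and chr9:5308828-5336783 on the plus strand (GENCODE M21, GRCm38).

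Counted by class, 1 of 6 measured members was higher in osteoclast-like cells (Il1rn, background 1.58%), 3 of 7 in macrophage-like cells (Il1b, Il1rn and Casp4, background 4.03%), 2 of 7 in monocyte-like cells (Il1b and Il1rn, background 2.51%) and 1 of 8 in neutrophil-like cells (Il1r2, background 2.74%). In these 4 classes 0 members were called lower, where the backgrounds were 0.238%, 2.33%, 0.689% and 1.66%. The median log2 ratio of the measured members was 0.21, 0.47, 0.35 and 0.29 in the same order, beside 0.04, 0.01, 0.05 and 0.03 over all measured genes. In the small dendritic cell-like class 4 of 9 were higher (Il1b, Il1rn, Il1r1 and Casp4, background 12.3%) and 0 were lower (background 7.07%), and 0 of 5 were called in progenitor-like cells (backgrounds 4.94% and 2.11%). In B cell-like cells, with 113 cells in the vehicle library, 1 of 6 was higher (Il1rap, background 16.4%) and 2 were lower (Il18 and Nlrp3, background 13.9%), each on 5 or fewer vehicle UMIs.

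Other genes of the pathway were followed in lists. Of 13 further IL-1 family ligands, receptors and regulators, 3 were measured over all cells and 2 were higher (background 8.15%): Il18rap, the signalling chain of the IL-18 receptor, at 11.9 and 4.25 CPM (2.80-fold, 2.64 to 2.96), and Il1f9, the deposited symbol for IL-36γ, at 44.5 and 15.96 CPM (2.79-fold, 2.71 to 2.87). Il1f9 was also higher in osteoclast-like cells, at 6.72 and 4.18 CPM (1.61-fold). In neutrophil-like cells, 24.2% and 12.7% of cells, 7 of the list were measured and 0 were called in either direction (backgrounds 2.74% and 1.66%). The median log2 ratio of the list there was 0.035, beside 0.035 over all measured genes. Within this class, cluster 4 had 2 higher and 1 lower of 7 measured, cluster 8 had 0 of 5 called, and cluster 9 had 1 lower of 6. Backgrounds were not counted for single clusters. Il18bp, which encodes the secreted binder of IL-18, was higher in macrophage-like cells, at 5.06 and 1.30 CPM (3.90-fold, 2.91 to 5.28), and at 5.04 and 3.42 CPM (1.47-fold, 1.07 to 2.05) in neutrophil-like cells.

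All 19 genes of IL-1 receptor signalling were measured in each of the 4 main classes, and 0 were called in either direction there. Over all cells 2 of the 19 were higher, near the background of 8.15%: Irak3 at 45.3 and 21.7 CPM (2.09-fold) and Peli2 at 13.7 and 6.83 CPM (2.00-fold). Irak3, an inhibitory kinase homologue of the pathway, was at 206 and 178 CPM in neutrophil-like cells (1.16-fold, 1.11 to 1.21) and at 8.04 and 8.49 CPM in osteoclast-like cells. Myd88, the adaptor, was at 1.24-fold over all cells and from 1.18-fold in monocyte-like to 1.37-fold in neutrophil-like cells.

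Of 28 inflammasome sensors, adaptors and effectors 27 were found, 22 were measured over all cells, 5 were higher (background 8.15%) and 0 lower. The median log2 ratio of the list was 0.07, beside -0.01 over all measured genes. The highest were Gbp2, a guanylate-binding protein, at 4.52 and 1.07 CPM (4.22-fold, 3.79 to 4.70), and Cd300lf, a surface receptor of myeloid cells, at 14.7 and 4.20 CPM (3.49-fold, 3.30 to 3.69). By class, 1 of 19 was higher in osteoclast-like (background 1.58%), 3 of 22 in macrophage-like (4.03%), 1 of 21 in monocyte-like (2.51%) and 3 of 20 in neutrophil-like cells (2.74%), and 1 of 20 was lower in neutrophil-like cells (1.66%). A single gene in a list of this length is close to these backgrounds. Gbp2 was also higher in macrophage-like (5.78 and 1.48 CPM), monocyte-like (3.78 and 1.12 CPM) and neutrophil-like cells (4.83 and 1.58 CPM), and Gbp3 in osteoclast-like cells (9.40 and 2.91 CPM, 3.23-fold). Pycard, the adaptor, went the other way without a call: 0.80 (0.78 to 0.81) in osteoclast-like cells at 120.4 and 151 CPM, 0.67 (0.65 to 0.70) in macrophage-like cells at 128 and 191 CPM, and 0.86 and 0.85 in monocyte- and neutrophil-like cells. Gsdmd, the pore-forming substrate of caspase-1, was at ratios of 1.07, 1.12, 0.82 and 1.02 in osteoclast-, macrophage-, monocyte- and neutrophil-like cells, and Aim2, a sensor of cytosolic DNA, at 0.91, 0.92, 1.06 and 0.98. In neutrophil-like cells Nlrp1a was called lower, at 2.46 and 3.75 CPM, and Nlrp1b higher, at 2.70 and 1.51 CPM.

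Of 20 NF-κB and IL-1 response genes 18 were measured over all cells, with 7 higher (background 8.15%) and 0 lower. The median log2 ratio of the list was 0.21, beside -0.01 over all measured genes. The highest were Saa3, an acute-phase protein, at 29.8 and 9.04 CPM (3.30-fold), and Lcn2, a siderophore-binding protein stored in neutrophil granules, at 1802 and 570.2 CPM (3.16-fold). Lcn2 is also a neutrophil marker here. In macrophage-like cells 4 of 19 were higher (background 4.03%), led by Saa3 at 16.4 and 3.51 CPM (4.66-fold) and Lcn2 at 95.1 and 23.6 CPM (4.03-fold). In monocyte-like cells 2 of 17 were higher (background 2.51%), Saa3 at 79.1 and 44.4 CPM (1.78-fold) and the chemokine gene Ccl2 at 284 and 171 CPM (1.66-fold). In neutrophil-like cells 1 of 18 was (background 2.74%), Ccl2 at 6.56 and 2.83 CPM, and in osteoclast-like cells 1 of 15 (background 1.58%), Lcn2 at 59.8 and 20.7 CPM. Both of these are single genes of their list. In the small dendritic cell-like class 11 of 20 were higher (background 12.3%) and 1 was lower (background 7.07%). The median log2 ratio of the list there was 0.62, beside 0.006 over all measured genes.

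Of 6 serine proteases known to cut IL-1 family cytokines, 3 were measured over all cells and all 3 were higher (background 8.15%), among them Prtn3 at 443 and 188 CPM (2.36-fold) and Elane at 374 and 166 CPM (2.26-fold). In monocyte-like cells 4 of 4 were lower (background 0.689%), among them Elane at 51.6 and 105 CPM (ratio 0.49, 0.47 to 0.51) and Mcpt8 at 1.04 and 7.03 CPM (ratio 0.15, 0.11 to 0.19). Elane, Prtn3 and Ctsg are also progenitor markers here and Mcpt8 is also a basophil marker. Both marker lists were lower in this class, and the part of such cells in the protease values was not tested. The 7 progenitor markers together came to 1354 CPM with DHT and 1595 CPM with vehicle, and as a percent of their level over all barcodes had medians of 44.7% and 136%. The 6 mast cell or basophil markers came to 3.27 and 24.3 CPM, with 1 of them at 0 in the DHT library. Cluster 10, one of the monocyte-like clusters, had 6.44 and 52.8 CPM of the latter. The neutrophil-like class as a whole had 0 of 3 called, but its clusters differed. Cluster 4 had 3 of 3 higher (median log2 ratio 0.74, beside -0.0006 over all measured genes). Cluster 8 had 2 of 3 higher (1.26, beside 0.03), and cluster 9 had 0 of 3 called (-0.17, beside 0.09). Backgrounds of called genes were not counted for single clusters. Progenitor-like cells, 3.13% and 1.73% of cells, had 0 of 4 called (backgrounds 4.94% and 2.11%). The median log2 ratio of the list there was -0.20, beside 0.09 over all measured genes. In osteoclast-like cells 3 of 3 were higher (background 1.58%), among them Prtn3 at 8.87 and 4.11 CPM (2.16-fold) and Elane at 7.75 and 3.83 CPM (2.02-fold). The neutrophil-like cells had 365 and 435 CPM of Prtn3. As a percent of their level over all barcodes, the progenitor markers had medians of 2.38% and 2.66% in osteoclast-like cells. Free RNA in this class, estimated from 6 neutrophil markers, was put at 2.73% and 3.32%, and its part in the protease values was not tested. In macrophage-like cells 1 of 3 was lower (background 2.33%).

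Patterns over the classes were compared as a description, with Pearson's r of log2(CPM + 1) over 14 points (7 classes in 2 libraries, which share cells, depth and library), among 6434 genes. Most like Il1b were Mxd1 (r = 0.941), Gpsm3 (0.926) and Mmp25 (0.925), and Mmp25 also led for Il1r2 (0.980), before Plxnc1 (0.914) and Gcnt2 (0.908). Most like Il1rn were Rab7 (0.950), Plekho2 (0.927) and Myo9b (0.914). For Nlrp3 they were Sema4a (0.968), Tnf (0.965) and Pilra (0.962). For Il18 they were Tpd52 (0.955), Bst1 (0.937) and Rhbdf2 (0.918), for Il1rap Qsox1 (0.941), Mcu (0.920) and Adpgk (0.915), for Casp1 Lrpap1 (0.930), Nrros (0.910) and Ms4a6c (0.909), and for Casp4 Ppp1cb (0.892), Pdzd8 (0.883) and Stxbp5 (0.872). For Il1a and Il1r1, which rest on few UMIs, they were Cpne3 (0.971), Ly6g (0.968) and Stfa2l1 (0.966), and Psme2 (0.910), Arhgap31 (0.898) and Mea1 (0.884).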

How the data were processed

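Single-cell 3′ libraries of 1 DHT and 1 vehicle culture were analysed. The authors deposited raw UMI counts per gene and barcode for each library (10798 and 10630 barcodes). The counting tool was Cell Ranger 7.0.1 per the file headers. The submitters' processing notes name GRCh38 and mm10 without a role. Whether intronic reads were counted is not given in the sources used here.

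The members and lists were chosen with earlier results of these data known. Barcodes with at least 300 genes, 800 UMIs and at most 10% mitochondrial UMIs were kept. Doublets were called per library with Scrublet in scanpy 1.11.5 (expected rate 0.08), which removed 203 (2.57%) and 156 (1.78%). The 2000 most variable genes, without members, pathway and interferon lists, gave 30 principal components, 15 neighbours and Leiden clusters at resolution 0.6 (leidenalg 0.10.2). The lists name 4 IL-36 genes by symbols the deposited tables do not use. They were matched through RefSeq synonyms after a first clustering had wrongly kept them in and its results had been seen. The corrected clustering is used because it follows the stated rule, and the first is kept as an alternative. A cluster was called X-like when at least 3 and at least 50% of the markers of X were over 2-fold above the median of the other clusters, and X led among its 10 leading genes. Clusters with a median under 2000 UMIs stayed unnamed.

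Counts were summed per library and class with at least 100 cells in both. CPM have exact Poisson, shares Clopper-Pearson and ratios conditional binomial intervals at 95%. For shares, cells were thinned to the 10th percentile, 4719 UMIs, which left out 1060 and 570 cells. Named pathway genes are up to 2 highest and 2 lowest called per list and class, with Pycard, Gsdmd, Aim2, Il18bp, Myd88 and Irak3 always. On simulated Poisson counts of the osteoclast-like comparison (10491 genes), 94.8% of intervals held the true ratio. The simulation had no spread between cells or cultures, so it checks the calculation only. Alternatives covered scaling (TMM in edgeR 4.0.16, median-of-ratios), filters, doublets, clustering, thresholds, free RNA and thinning.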

Additional observations from a re-analysis of the deposited data

Results flagged for a closer look

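For 4 members the ratio lay above 1 in a class or cluster and below 1 in another, with both counting intervals clear of 1. The differences between them were not tested, since each group is 1 library. Il1b was at 5.30-fold in conventional dendritic cell-like cells and at a ratio of 0.546 (0.33 to 0.90) in cluster 9, neutrophil-like cells led by Camp and Ngp, on 36 and 33 UMIs. Il1r1 was at 2.75-fold in conventional dendritic cell-like cells and 0.674 in the monocyte-like cluster 6, on 67 and 71 UMIs. Nlrp3 was at 2.76-fold in the unnamed low-UMI cluster 5 and 0.755 in the osteoclast-like cluster 3. Casp1 was at 1.77-fold in the neutrophil-like cluster 4 and 0.806 in granulocyte-monocyte progenitor-like cells.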

How the results depend on the processing

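Counting depth limits Il1a and Il1r1, and 1 culture per group limits every comparison. No paired analysis was possible because each group has 1 library. Of 182 counts of called members recomputed under other settings, 166 stayed within 1.5 times the reported count and 16 did not, and no called ratio changed sign. Over all cells, 5 members were higher, against 2 at a 2-fold threshold, 3 at a minimum of 10 CPM and 3 with clusters weighted by their mean share over both libraries. In osteoclast-like cells 1 was higher, against 0 at 2-fold, 0 with clusters scored against all other cells (336 and 616 cells left in the class) and 3 with no minimum. In macrophage-like cells it was 3, against 1 at 2-fold and 1 with all variable genes. In monocyte-like cells it was 2, against 1 at 2-fold, 1 at resolution 0.3 and 0 at a minimum of 10 CPM, and 1 was lower at resolution 0.3. In neutrophil-like cells it was 1, against 0 at 2-fold, and 2 each with no minimum, no doublet removal and resolution 0.3. Of 36 measured member ratios, 25 kept their side of the threshold in every planned setting. These ratios covered all cells and the osteoclast-, macrophage-, monocyte- and neutrophil-like classes. Ratios of the dendritic cell-, progenitor- and B cell-like classes and of single clusters were not recomputed.

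Chosen after seeing the data were 3 further settings. With the 4 IL-36 genes left in the clustering (adjusted Rand index to the reported clusters 0.790) the osteoclast-like class had 1737 and 3466 cells in place of 2272 and 4750, and every count of called members was the same. The counts were also the same without the cell with the most UMIs of each member. Without neutrophil-like cells the ratio over all cells was 3.102 for Il1b, 1.55 for Nlrp3 and 1.61 for Il1rn. The cause of these shifts was not tested.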
